A study of Mus musculus with 10 samples.

Results

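The mouse Schlafen genes Slfn1, Slfn2, Slfn4, Slfn5, Slfn8 and Slfn9 are described here across the cell types of livers that carried metastases of colorectal cancer. They are 6 of the 32285 genes in the count matrices and were taken by name. The family was chosen by the Slfn4 levels of monocytes, which were strongly raised in livers with interferon alpha, so that pattern is given as values without a test. The data are single-cell RNA counts (10x Genomics, in which each molecule carries a unique molecular identifier, UMI) of 5 livers sorted for living cells without an antibody. Liver 22 (IFNa + aCTLA4, n = 1), called the combination liver, received a lentiviral vector (LV) for the type I interferon IFNa plus anti-CTLA-4, which blocks a brake on T cells. IFNa livers 18 and 23 (n = 2) received the IFNa vector alone, and Control livers 11 and 25 (n = 2) a control vector. All 5 livers therefore carried both tumour and a lentiviral vector. The series title speaks of engineering macrophages in vivo; the vector's promoter, the strain and the age of the mice are not given in the sources used here. Whether the livers are from separate mice is not stated in the labels. The p-values therefore reflect only how far these particular samples spread, part of which can be technical.

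Type I interferon binds a receptor of the subunits IFNAR1 and IFNAR2, and the kinases JAK1 and TYK2 then activate the factor ISGF3, which binds interferon-stimulated response elements (ISRE) of target genes. Schlafen genes, named after the German word for sleeping, are among those targets in immune cells. In the mouse, Slfn1 and Slfn2 encode the short proteins, Slfn3 and Slfn4 proteins of intermediate length, and Slfn5, Slfn8, Slfn9 and Slfn14 long proteins with a helicase-like part. Slfn1 slows T cell growth when overexpressed, Slfn2 is needed for the quiescence of T cells and monocytes, Slfn4 is a gene of activated macrophages and myeloid cells, and human SLFN5 restrains transcription of interferon target genes.

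The 6 genes lie within 238.9 kb of mouse chromosome 11 (GRCm38, 82951349 to 83190216, GENCODE annotation). Slfn5 (ENSMUSG00000054404, forward strand) comes first at 82951349 to 82964840, followed by Slfn9 (ENSMUSG00000069793) at 82978390 to 82991830 and Slfn8 (ENSMUSG00000035208) at 83002158 to 83020810, both on the reverse strand. Slfn2 (ENSMUSG00000072620) at 83065112 to 83070678, Slfn1 (ENSMUSG00000078763) at 83116849 to 83122670 and Slfn4 (ENSMUSG00000000204) at 83175186 to 83190216 lie on the forward strand. Slfn5os, an antisense gene, overlaps Slfn5. Some transcript sequence is shared within the family: of the distinct stretches of 60 bases in the annotated transcripts, 10.8% of those of Slfn8 and 8.4% of those of Slfn9 also occurred in another family gene, most often the pseudogene Slfn10-ps, which was not analysed here. The share was 4.73% for Slfn4 (mostly with Slfn3), 3.05% for Slfn2 (with Slfn4), 0.0554% for Slfn1 and 0 for Slfn5. How many counted reads fell in shared stretches was not measured, so the counts of these genes carry that uncertainty.

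**Figure D1:**
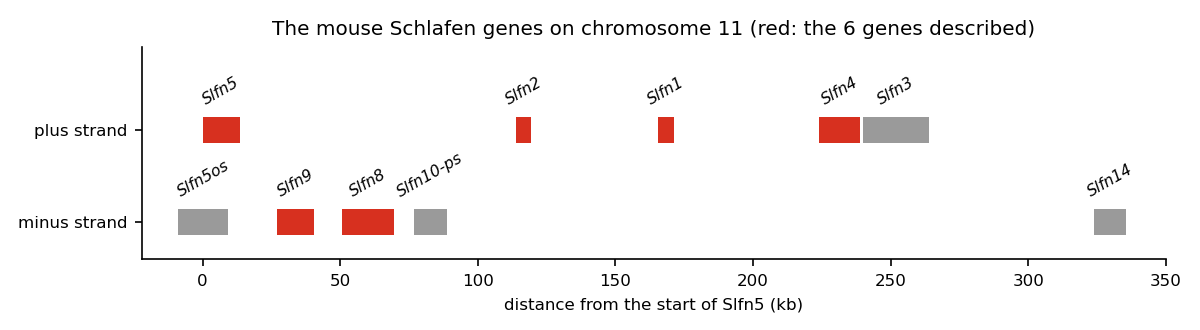
Map of the Schlafen genes on mouse chromosome 11 (GRCm38), with distance from the start of Slfn5 in kb on the horizontal axis and 1 row for each strand. The 6 genes described (red) span 238.9 kb, with Slfn8 and Slfn9 on the reverse strand and Slfn3 and Slfn14 beyond Slfn4.

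The promoters of the 6 genes are shown because the genes were higher together in IFNa livers and ISGF3 is known to act at promoter elements. Each window holds 250 bases before and 50 bases after the RefSeq gene start (GRCm38.p6), read 5′ to 3′ on the gene's own strand. Windows are chr11:83116570-83116869 (forward) for Slfn1, chr11:83064862-83065161 (forward) for Slfn2 and chr11:83174936-83175235 (forward) for Slfn4. Those of the long genes are chr11:82951852-82952151 (forward) for Slfn5, chr11:83020761-83021060 (reverse) for Slfn8 and chr11:82991781-82992080 (reverse) for Slfn9. In the first 3 sequences capitals mark a run of 11 bases that they share, and in the last 3 a match to an ISRE-like motif.
Slfn1: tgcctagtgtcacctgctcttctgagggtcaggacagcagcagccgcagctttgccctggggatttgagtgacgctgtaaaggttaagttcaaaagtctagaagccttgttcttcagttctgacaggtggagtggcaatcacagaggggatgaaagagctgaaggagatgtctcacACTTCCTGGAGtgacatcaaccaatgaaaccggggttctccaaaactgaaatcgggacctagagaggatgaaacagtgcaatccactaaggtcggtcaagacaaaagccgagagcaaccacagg
Slfn2: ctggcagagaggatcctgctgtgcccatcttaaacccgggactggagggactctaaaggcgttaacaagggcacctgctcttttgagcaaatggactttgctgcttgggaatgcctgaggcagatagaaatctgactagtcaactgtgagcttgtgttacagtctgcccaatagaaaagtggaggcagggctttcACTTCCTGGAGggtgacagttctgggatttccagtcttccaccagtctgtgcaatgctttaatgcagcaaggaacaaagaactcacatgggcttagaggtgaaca
Slfn4: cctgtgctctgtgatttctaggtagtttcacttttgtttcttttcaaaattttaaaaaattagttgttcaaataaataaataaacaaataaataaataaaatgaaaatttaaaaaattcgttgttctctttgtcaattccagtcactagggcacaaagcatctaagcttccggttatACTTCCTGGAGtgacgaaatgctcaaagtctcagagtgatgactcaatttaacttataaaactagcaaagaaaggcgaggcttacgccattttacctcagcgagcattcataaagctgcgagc
Slfn5: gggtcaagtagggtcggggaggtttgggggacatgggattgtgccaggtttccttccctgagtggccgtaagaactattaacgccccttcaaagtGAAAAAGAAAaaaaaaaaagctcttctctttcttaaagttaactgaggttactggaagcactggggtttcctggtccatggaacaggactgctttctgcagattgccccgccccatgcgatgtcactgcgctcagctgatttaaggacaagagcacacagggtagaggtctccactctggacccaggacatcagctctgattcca
Slfn8: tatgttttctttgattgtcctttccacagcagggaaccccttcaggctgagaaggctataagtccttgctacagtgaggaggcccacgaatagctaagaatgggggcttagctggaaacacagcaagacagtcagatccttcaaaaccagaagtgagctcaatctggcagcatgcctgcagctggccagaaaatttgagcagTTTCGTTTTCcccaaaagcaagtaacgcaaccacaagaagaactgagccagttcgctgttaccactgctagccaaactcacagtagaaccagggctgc
Slfn9: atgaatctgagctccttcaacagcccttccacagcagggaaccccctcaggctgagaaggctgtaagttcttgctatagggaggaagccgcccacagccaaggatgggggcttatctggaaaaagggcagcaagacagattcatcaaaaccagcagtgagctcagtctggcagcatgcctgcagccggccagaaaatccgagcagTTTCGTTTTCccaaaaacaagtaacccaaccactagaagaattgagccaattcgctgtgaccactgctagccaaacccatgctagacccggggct

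The ISRE-like motif was searched on both strands as GAAA, any 2 bases and GAAA again. It was found 155 bases before the start of Slfn5, 48 bases before that of Slfn8 (136 before a second RefSeq start of that gene) and 45 bases before that of Slfn9, and these letters were not in the windows of Slfn1, Slfn2 and Slfn4. Of all 32851 RefSeq promoter windows of this length 1131 (3.44%) held a match, and of 34 genes of the type I interferon list with a window, 16 (47.1%) did. The motif TTCNNNGAA (GAS, the gamma-activated site) was in none of the 6 windows and in 8.3% of all. The shared run ACTTCCTGGAG, found by comparing these sequences, began 74, 55 and 73 bases before the starts of Slfn1, Slfn2 and Slfn4, and 24 of all 32851 windows (0.0731%) held it. This exact run was in no window of Slfn3, Slfn5, Slfn8, Slfn9 or Slfn14, but that of Slfn3 held the near match ACTTCCTGGGG. The family windows were searched for the run on the gene's own strand, and all windows on either strand. The windows of Slfn8 and Slfn9 were 81.0% identical (247 of 305 aligned columns), against 44.2% to 51.5% for the other 14 pairs. The Slfn5 window lies wholly inside the GENCODE span of that gene, which begins at 82951349, so its RefSeq and GENCODE starts differ. A match is a sequence description and does not show binding.

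Cells were clustered without Schlafen, interferon and related genes, and clusters were named from marker genes. Deposited cells numbered 9605 in the combination liver, 6290 and 5574 in IFNa livers 18 and 23, and 5707 and 863 in Control livers 11 and 25, with 10464216 to 69856071 UMIs a library. Control 25 was thus the smallest library. Pairs of libraries shared 4 to 83 cell barcodes. Between 3.32% and 29.5% of kept cells joined no class, the highest share being that of the combination liver. Sums of UMIs per liver and class held 10 to 1621 cells, and levels are given as CPM, the gene's UMIs scaled to an equal total of UMIs in each sum. These are not scaled by gene length, so levels are compared between livers and classes and not between genes. Hepatocyte-like cells were few (1 to 10 a liver), and the epithelial-like class, which may hold tumour or bile duct cells, had summed epithelial markers of 4858.2 CPM in the combination, 7239.8 and 8568.1 CPM in IFNa and 8007.1 and 8197.7 CPM in Control livers.

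Slfn4 in monocytes was the pattern behind the choice of the family. In classical monocyte-like cells it measured 721.5 CPM in the combination liver, 1038.2 and 1062.9 CPM in the IFNa livers and 37.2 and 46.9 CPM in the Control livers. All 3 livers with interferon lay far above both Control livers, and the combination lay below both IFNa livers. The fitted ratio of the IFNa to the Control livers was 26. Non-classical monocyte-like cells, which patrol vessels, had 770.2 CPM in the combination, 786.2 and 626.6 CPM in IFNa and 13 and 8.76 CPM in Control livers, a fitted ratio of 58.9 for IFNa over Control. These values are a description, since they were used to choose the genes.

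At the level of cells, most monocyte-like cells of the livers with interferon held Slfn4 UMIs. After thinning every cell to 2000 UMIs, 61.1% of classical monocyte-like cells of the combination liver held a Slfn4 UMI (exact 95% interval 56.6% to 65.4%). The share was 71.9% (68.7% to 75.0%) and 73.4% (69.0% to 77.5%) in IFNa livers, and 5.27% (4.22% to 6.5%) and 6.25% (3.27% to 10.7%) in Control livers. Without thinning the shares were 82.6% in the combination, 88.1% and 92.7% in IFNa, and 18.1% and 22.7% in Control livers. B-like cells, taken as a type that should lack Slfn4, held a UMI in 0.0967% of thinned cells of the combination, 0.593% and 0% in IFNa and 0.138% and 0% in Control livers (upper bounds of the exact intervals at 0 were 0.54% for IFNa 23 and 2.53% for Control 25), at median depths of 3672 to 5150 UMIs, against 8680 to 14388 UMIs in classical monocyte-like cells. Thinning left out 2.41% to 5.88% of the cells of a liver. The intervals cover counting error only.

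**Figure D2:**
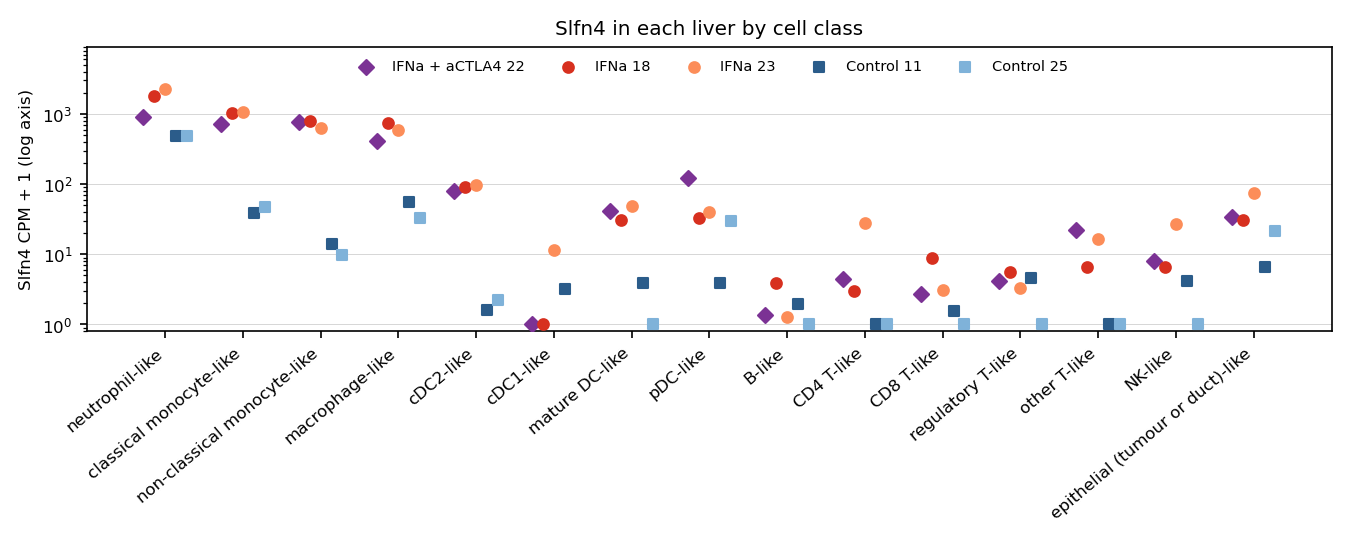
Slfn4 level of each liver by cell class, in CPM + 1 on a log axis, with 1 point a liver (diamonds for the combination, circles for IFNa, squares for Control). The 3 livers with interferon sit above the Control livers in every class drawn but cDC1-like, B-like and regulatory T-like cells. In the lymphocyte classes this rests on few Control UMIs. Neutrophil-like cells have the highest Control values (485.5 and 487.2 CPM).

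Different clusters made up the classical monocyte-like class in the 3 groups. Cluster 40, led by Cxcl9, Ly6i and Cxcl10, held 74.7% of the class in the combination liver, against 7.58% and 18.4% in IFNa and 0.494% and 1.55% in Control livers. Cluster 0 held 0.566% in the combination, 4.9% and 2.65% in IFNa and 72.1% and 70.6% in Control livers. Cluster 21 was the one with at least 10 cells in every liver: 10 in the combination, 294 and 224 in IFNa and 302 and 35 in Control livers. Within it Slfn4 stood at 1174.9 CPM in the combination, 1322.9 and 1272.7 CPM in IFNa and 68.6 and 162.1 CPM in Control livers. These values are part of the monocyte pattern that chose the family, and that of the combination rests on 10 cells. Summed neutrophil markers in the class were 165.4 CPM in the combination, 246.7 and 189.4 CPM in IFNa and 598.7 and 697.6 CPM in Control livers. They were thus higher in Control livers, where Slfn4 was lower. The combination lay below both IFNa livers in these markers and in Slfn4 alike. Of the 7 markers, 0 to 3 were at 0. The part of neutrophil transcripts in the Slfn4 values of this class was not tested.

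**Figure D3:**
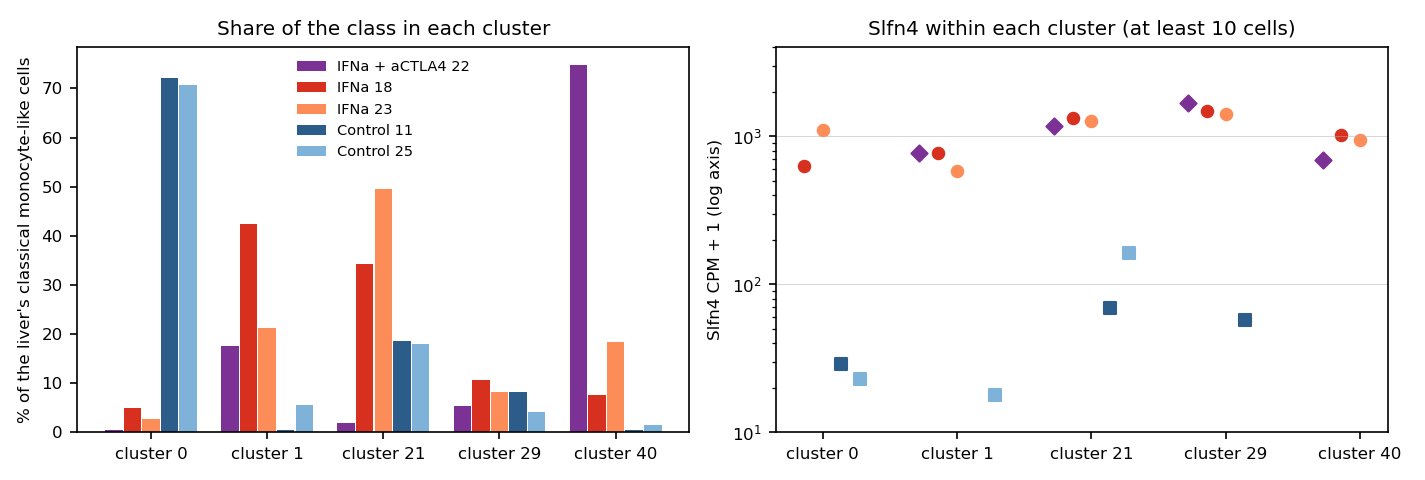
Left, percent of each liver's classical monocyte-like cells in each cluster (bars, 1 a liver); right, Slfn4 within each cluster with at least 10 cells of the liver, in CPM + 1 on a log axis. Cluster 40 holds most of the class in the combination liver and cluster 0 in the Control livers, and in cluster 21 the livers with interferon have 1174.9 to 1322.9 CPM, against 68.6 and 162.1 CPM in Control.

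Outside the monocyte classes, 12 classes could be tested for IFNa against Control (edgeR quasi-likelihood test on UMI sums, Benjamini-Hochberg adjustment over all genes of a class, threshold 0.05). Of the 72 pairs of gene and class 70 passed the filter on low counts, and 30 were higher in IFNa livers and 0 lower, with 67 fold changes above zero. Over all genes and the same classes 0.894% of pairs were called higher and 0.336% lower. In all 30 calls both IFNa livers lay above both Control livers in CPM. The calls were made on these same values, so this order is no separate support. Its share over all genes was not counted. The calls were 7 for Slfn1, 5 for Slfn2, 3 for Slfn4, 7 for Slfn5, 6 for Slfn8 and 2 for Slfn9. By class, all 6 genes were called in cDC2-like and macrophage-like cells, where 2.59% and 2.31% of all genes were called higher. B-like and neutrophil-like cells had 4 calls each (background 1.21% and 1.87%). NK-like, other T-like and regulatory T-like cells had 3 each (0.73%, 0.619% and 0.471%), and pDC-like cells had 1 (0.72%).

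No member was called in 4 classes. Here and below, percentages of all genes refer to the adjusted threshold and are no background for the counts at an unadjusted p. In CD4 T-like cells edgeR called 0 of 6 (5 at an unadjusted p under 0.05, DESeq2 0), beside 0.168% of all genes called higher. CD8 T-like cells had 0 of 6 (3 unadjusted, DESeq2 2) and no call among any of 10713 genes. Epithelial-like cells had 0 of 6 (5 unadjusted, DESeq2 0; 0.0234% of all genes) and mature DC-like cells 0 of 6 (4 unadjusted, DESeq2 0; 0.011%). Few genes of any kind were called in these classes. Epithelial-like cells of Control 25 held 4059.2 CPM of summed neutrophil markers, against 13.8 to 153.1 CPM in the other livers. Epithelial-like cells of the combination liver held 3039.4 CPM of summed erythroid markers, the highest value of any liver in that class. The part of these transcripts in the Schlafen values of epithelial-like cells was not tested. The fold changes of the members were above zero in all 4 classes, with a median of 0.99 (log2) in CD4 T-like, 1.38 in CD8 T-like, 1.12 in epithelial-like and 1.69 in mature DC-like cells, against 0.01, 0.02, 0.02 and 0.03 over all genes.

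**Figure D4:**
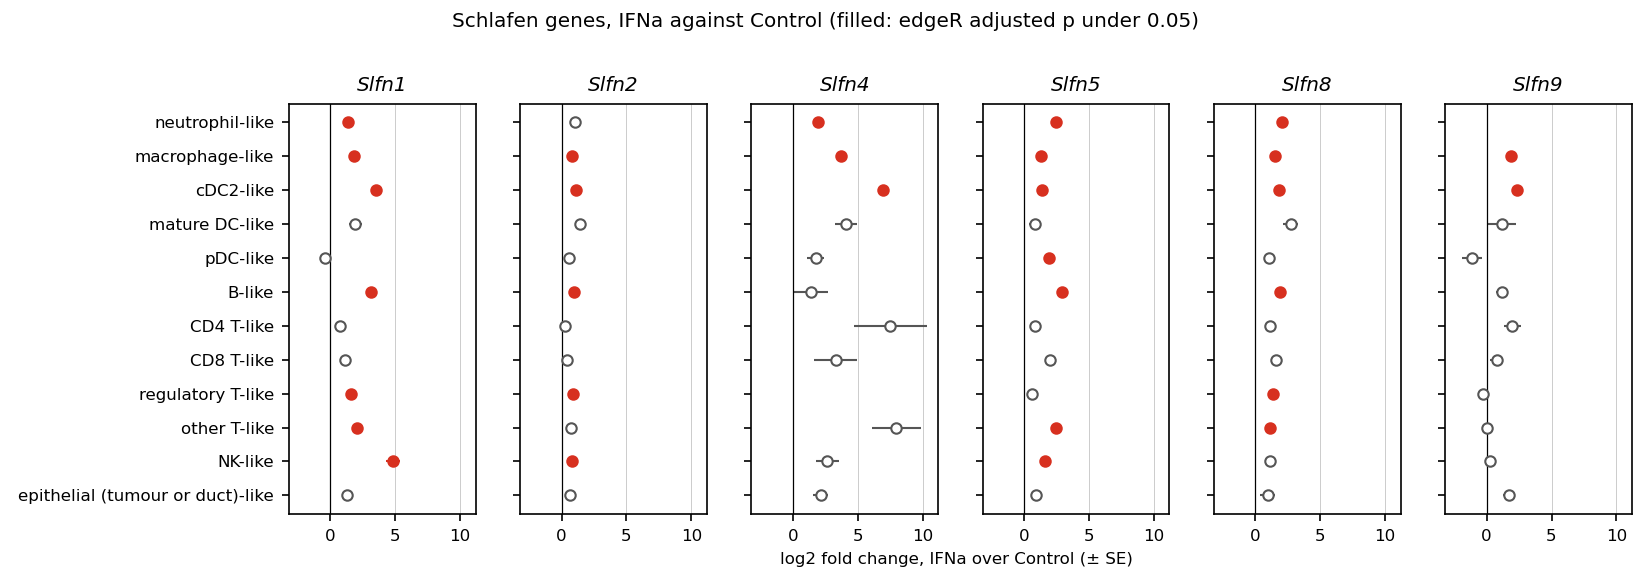
Log2 fold change of IFNa over Control (points, with SE as bars) for each Schlafen gene in the 12 classes outside the monocytes, filled red where edgeR's adjusted p was under 0.05. There are 30 filled points, all to the right of zero, with all 6 genes filled in cDC2-like and macrophage-like cells; the points of Slfn4 in CD4 T-like and other T-like cells rest on 0 Control UMIs and are no estimate of size.

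Slfn4, the myeloid member, was highest in neutrophil-like cells. It measured 912.4 CPM in the combination, 1778.4 and 2300.2 CPM in IFNa and 485.5 and 487.2 CPM in Control livers. In Control livers no other class came near this level, the next being macrophage-like cells at 55.2 and 32.2 CPM. IFNa livers exceeded Control livers by 1.96 ± 0.33 (log2 fold change ± SE, adjusted p = 0.000743, edgeR). Summed neutrophil markers of this class were 159301.5 CPM in the combination, 35199.1 and 38304.7 CPM in IFNa and 93742.8 and 111825.7 CPM in Control livers. Immature neutrophil genes led cluster 34, which held 28.6% of the class in the combination liver (21 cells in all), 2.3% and 2.17% in IFNa and 11.3% and 20.8% in Control livers. Within the other cluster, number 12, Slfn4 stood at 1899.0 CPM in the combination, 1804.8 and 2411.4 CPM in IFNa and 464.3 and 310.6 CPM in Control livers, so the IFNa and Control livers did not overlap there either.

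Macrophage-like cells had 413.1 CPM of Slfn4 in the combination, 731.1 and 587.1 CPM in IFNa and 55.2 and 32.2 CPM in Control livers. The difference of IFNa from Control was 3.74 ± 0.25 (log2, adjusted p = 8.15e-05, edgeR). Cluster 19, led by the complement genes C1qa, C1qb and C1qc, held all cells of the class in the combination, 85.9% and 98.3% in IFNa and 73.8% and 75.0% in Control livers. Within it Slfn4 was at 413.1 CPM in the combination, 714.6 and 578.7 CPM in IFNa and 50.0 and 33.4 CPM in Control livers. No cluster scored highest on the markers of Kupffer cells, the resident macrophages of the liver. Such a cluster would have joined the macrophage-like class, and Kupffer cells within that class were not counted.

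In cDC2-like cells, the dendritic cells that present antigen to CD4 T cells, Slfn4 was nearly absent from Control livers. It measured 79.5 CPM in the combination, 89.3 and 95 CPM in IFNa and 0.601 and 1.23 CPM in Control livers, from 211 UMIs in the combination, 340 and 568 UMIs in IFNa and 2 and 1 UMIs in Control livers. The ratio of IFNa to Control was 128.0 (95% counting interval 43.7 to 621.9), and the fitted log2 fold change was 6.91 ± 0.32 (adjusted p = 1.48e-05, edgeR). Thinned shares of cells with a UMI were 7.58% in the combination, 9.83% and 11.4% in IFNa and 0% (up to 1.53%) and 2.04% in Control livers. Unthinned they were 20.8% in the combination, 20.6% and 23.5% in IFNa and 0.83% and 2.0% in Control livers. These exceed the shares in B-like cells of the same treated livers. Classical monocyte markers summed to 573.8 CPM in the combination, 720.1 and 544.2 CPM in IFNa and 646.9 and 816.9 CPM in Control cDC2-like cells. By each cell's own markers, 655 of the 1287 cells of this class were named cDC2 and 408 stayed unnamed. A further 66 were named classical and 42 non-classical monocyte. The part of monocyte transcripts in these Slfn4 values was not tested.

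In IFNa livers the other dendritic classes had less Slfn4 than cDC2-like cells. In the combination liver pDC-like cells exceeded the 79.5 CPM of cDC2-like cells. Mature DC-like cells had 41.1 CPM in the combination, 30.1 and 48.6 CPM in IFNa and 2.9 and 0 CPM in Control livers, with 1 Control UMI in all. In pDC-like cells, a main source of type I interferon in infection, the combination had 120.4 CPM, IFNa livers 32.0 and 38.8 CPM and Control livers 2.95 and 28.6 CPM. Control 25 contributed 17 pDC-like cells with 26343.9 CPM of summed erythroid markers and 1306.0 CPM of neutrophil markers, against 1.28 to 51.7 CPM and 22.2 to 88.6 CPM in the other livers; the part of these transcripts in its Slfn4 value was not tested. In cDC1-like cells, which cross-present antigen, Slfn4 was at 0 CPM in the combination, 0 and 10.4 CPM in IFNa and 2.22 CPM in Control 11, while Slfn5 of the same cells had 584.9 CPM in the combination, 383.3 and 592.0 CPM in IFNa and 153.8 CPM in Control 11. The cDC1-like class was not tested because Control 25 had 4 such cells.

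Lymphocytes held little Slfn4. Across the 6 lymphocyte classes it ran to 0.346 to 21.2 CPM in the combination, 0.294 to 26.6 CPM in IFNa and 0 to 3.63 CPM in Control livers. The values above 20 CPM were those of other T-like cells in the combination and of CD4 T-like and NK-like cells in IFNa 23. In other T-like cells the combination had 21.2 CPM, IFNa livers 5.7 and 15.8 CPM and both Control livers 0, at least 6.3-fold higher for IFNa against a floor of 3 UMIs over the Control livers. Cluster 47 of that class, led by histone genes, had 126.7 CPM in the combination (337 cells) and 98.6 CPM in IFNa 23 (126 cells) and no Control cell. Cluster 25, the largest of the class in every liver, had 0.803 CPM in the combination, 5.2 and 3.13 CPM in IFNa and 0 in both Control livers. CD4 T-like cells had 3.43 CPM in the combination, 2.03 and 26.6 CPM in IFNa livers 18 and 23 and 0 in both Control livers, the value of IFNa 23 coming from 7 of 172 cells. NK-like cells had 6.99 CPM in the combination, 5.56 and 26.2 CPM in IFNa livers 18 and 23 and 3.19 and 0 CPM in Control livers, with the UMIs of IFNa 23 in 11 of 492 cells.

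Slfn1 separated the groups in both myeloid cells and lymphocytes. Its levels in classical monocyte-like cells were 665.9 CPM in the combination, 723.5 and 732.9 CPM in IFNa and 179.4 and 218.8 CPM in Control livers, and in non-classical monocyte-like cells 702.7 CPM in the combination, 672.7 and 689.6 CPM in IFNa and 90.3 and 201.4 CPM in Control livers. In cDC2-like cells it stood at 318.5 CPM in the combination, 384.1 and 365.1 CPM in IFNa and 24.9 and 48.1 CPM in Control livers (IFNa against Control, 3.54 ± 0.25, log2, adjusted p = 5.21e-05, edgeR). Both groups with interferon were clear of both Control livers. Macrophage-like cells (1.84 ± 0.17, adjusted p = 0.000269) and neutrophil-like cells (1.4 ± 0.34, adjusted p = 0.0161, edgeR) were also higher in IFNa livers. The neutrophil-like call was lost without Control 25, without IFNa 18 or with classes from each cell's own markers.

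NK-like cells, innate killer lymphocytes, had almost no Slfn1 in Control livers. They measured 40.4 CPM in the combination, 33.0 and 43.0 CPM in IFNa and 0.797 and 2.93 CPM in Control livers, the Control values being 1 UMI each. The ratio of IFNa to Control was 30.7 (counting interval 8.41 to 255.4) and the fitted log2 fold change 4.84 ± 0.54 (adjusted p = 8.45e-05, edgeR). Thinned shares of cells with a UMI were 5.38% in the combination, 4.63% and 6.0% in IFNa and 0.498% and 0% (up to 8.04%) in Control livers. Unthinned they were 12.4% in the combination, 13.6% and 11.4% in IFNa and 0.472% and 2.27% in Control livers. Without Control 11 the NK calls of Slfn1, Slfn2 and Slfn5 were all lost.

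B-like cells had 41.1 CPM of Slfn1 in the combination, 64.1 and 49.3 CPM in IFNa and 3.73 and 16.4 CPM in Control livers (IFNa against Control, 3.15 ± 0.4, adjusted p = 0.00295, edgeR; not called by DESeq2). T cells carried more of it. CD4 T-like cells had 455.3 CPM in the combination, 560.4 and 399.2 CPM in IFNa and 245.9 and 319.3 CPM in Control livers, a difference of 0.76 ± 0.3 that did not pass (adjusted p = 0.689, edgeR). Regulatory T-like cells, which restrain other T cells, had 265.3 CPM in the combination, 293.0 and 248.9 CPM in IFNa and 98.7 and 76.0 CPM in Control livers (1.61 ± 0.21, adjusted p = 0.00306, edgeR; lost without Control 25). Other T-like cells were higher too (2.08 ± 0.26, adjusted p = 0.00847, edgeR), with 195.7 CPM in the combination, 164.5 and 182.0 CPM in IFNa and 32.3 and 65.9 CPM in Control livers. Without Control 11 the calls of Slfn1, Slfn5 and Slfn8 in other T-like cells were all lost. In CD8 T-like cells the values were 263.7 CPM in the combination, 287.1 and 239.5 CPM in IFNa and 118.1 and 119.5 CPM in Control livers; the groups did not overlap, but the test did not pass (1.15 ± 0.24, adjusted p = 0.31, edgeR). pDC-like cells were the exception in direction, with 76.8 CPM in the combination, 44.2 and 35.5 CPM in IFNa and 39.9 and 73.5 CPM in Control livers (IFNa against Control, −0.39 ± 0.35, adjusted p = 0.89, edgeR). The higher Control value was that of Control 25, whose pDC-like cells held the 1306.0 CPM of neutrophil markers given above; their part in the direction was not tested.

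Slfn2, the quiescence gene, was present in every lymphocyte class of Control livers, and its called fold changes were small. Among the 6 lymphocyte classes it ran from 353.9 to 580.2 CPM in the combination, 373.2 to 649.9 CPM in IFNa and 202.4 to 589.5 CPM in Control livers. B-like cells had 434.4 CPM in the combination, 567.2 and 574.8 CPM in IFNa and 326.4 and 298.1 CPM in Control livers (IFNa against Control, 0.93 ± 0.12, log2, adjusted p = 0.00368, edgeR). In cDC2-like cells the levels were 978.6 CPM in the combination, 954.8 and 803.5 CPM in IFNa and 440.3 and 390.0 CPM in Control livers (1.08 ± 0.16, adjusted p = 0.00464, edgeR). Its 5 called fold changes, from 0.83 to 1.08 (log2), lay below every called fold change of the other members. NK-like cells (0.83 ± 0.17, adjusted p = 0.0224), macrophage-like cells (0.83 ± 0.19, adjusted p = 0.0461) and regulatory T-like cells (0.9 ± 0.19, adjusted p = 0.0481, edgeR) were the other calls. The macrophage-like call was lost without Control 25, IFNa 18, IFNa 23 or the combination. The regulatory T-like call was lost without Control 25, IFNa 18 or the combination. Both were also lost with only the 2 groups compared and with classes from each cell's own markers. Keeping doublets or scaling the libraries by another method (RLE) also removed the regulatory T-like call. The NK-like call was lost without Control 11 or either IFNa liver, and the B-like call without IFNa 23. Classical monocyte-like cells had 907.6 CPM in the combination, 915.2 and 905.8 CPM in IFNa and 519.6 and 492.4 CPM in Control livers.

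**Figure D5:**
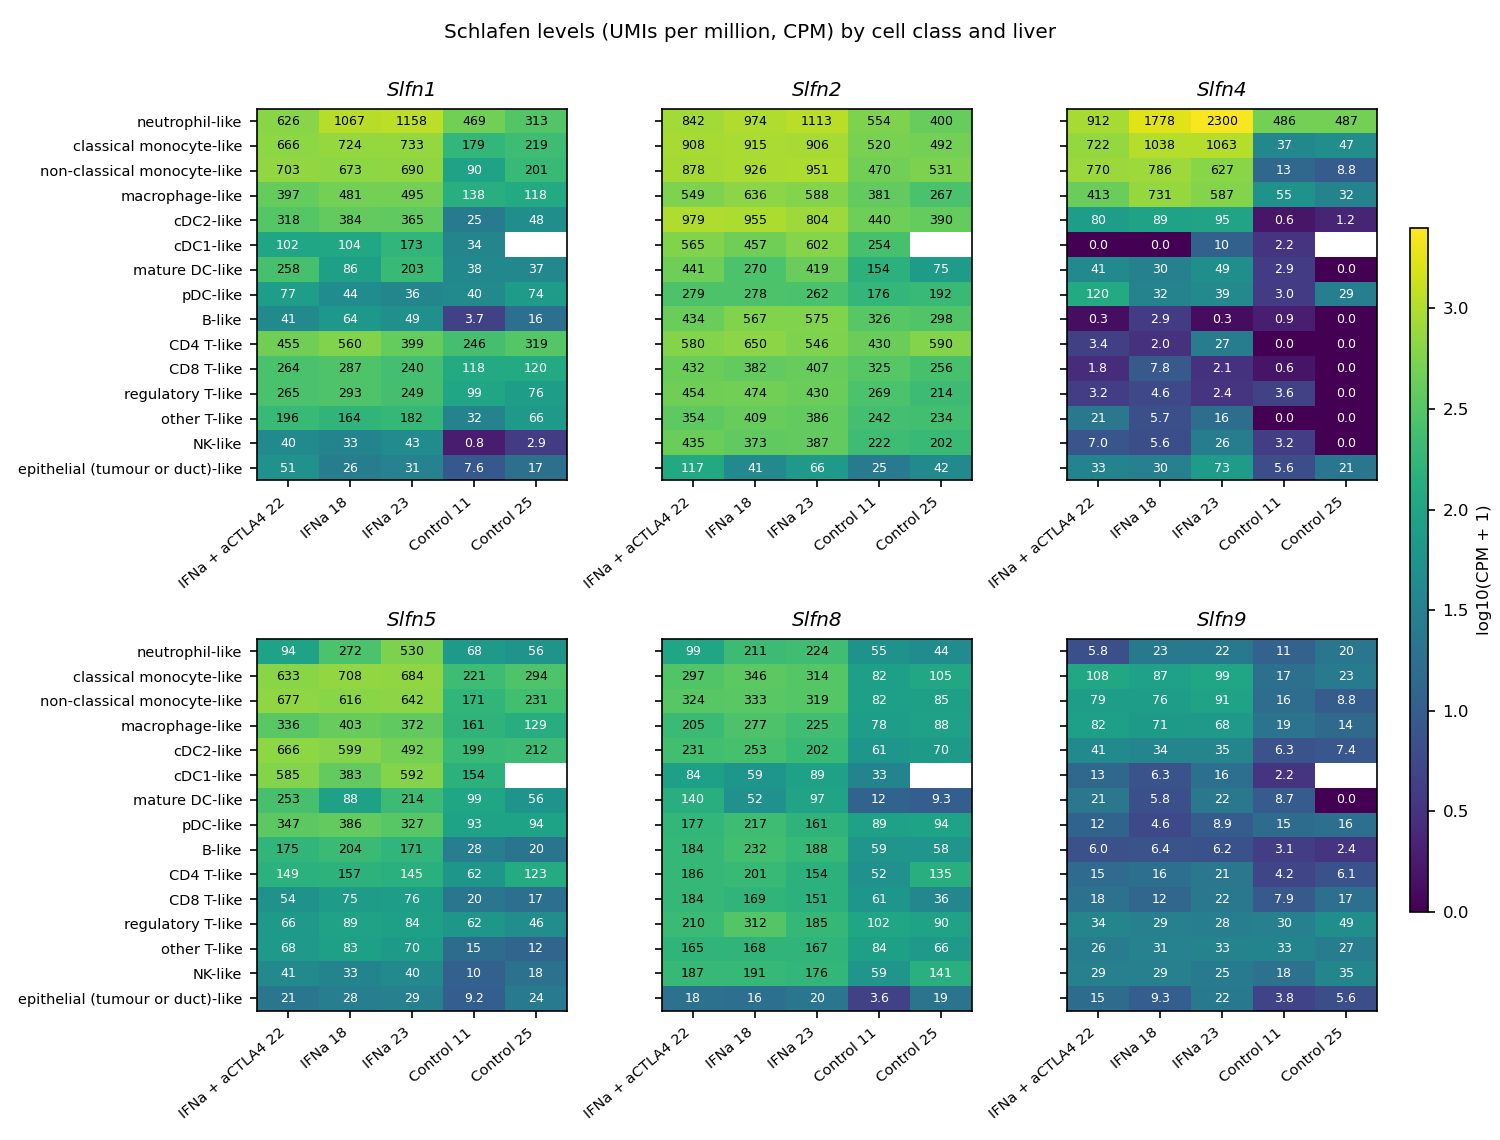
Level of each Schlafen gene as log10(CPM + 1) by cell class (rows) and liver (columns, combination, then IFNa, then Control), with the CPM printed in each cell; blank cells had under 10 cells. Slfn4 is high in neutrophil-like, monocyte-like and macrophage-like rows and low in lymphocyte rows, and Slfn2 is present across the immune rows of every liver.

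Slfn5, a long member with nuclear roles in human cells, was called in 7 classes. B-like cells, antibody-forming lymphocytes, showed the clearest separation, with 174.6 CPM in the combination, 204.5 and 170.6 CPM in IFNa and 27.7 and 20 CPM in Control livers (IFNa against Control, 2.95 ± 0.18, log2, adjusted p = 3.91e-05, edgeR). In neutrophil-like cells it measured 93.6 CPM in the combination, 271.7 and 530.2 CPM in IFNa and 68.1 and 56.4 CPM in Control livers (2.48 ± 0.34, adjusted p = 0.000109, edgeR). The combination liver lay near the Control livers there, on 16 UMIs. Within cluster 12, without the immature cluster 34, Slfn5 had 176.2 CPM in the combination, on 15 cells. IFNa livers had 281.1 and 560.8 CPM there and Control livers 84.9 and 52.7 CPM. pDC-like cells had 347.0 CPM in the combination, 386.0 and 327.4 CPM in IFNa and 93.0 and 93.9 CPM in Control livers (1.91 ± 0.2, adjusted p = 0.000565, edgeR), the single call in that class. The pDC-like call was kept with either Control liver left out, Control 25 with its erythroid transcripts included.

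In Control livers Slfn5 was highest in the monocyte-like, cDC2-like and macrophage-like classes. Classical monocyte-like cells had 632.9 CPM in the combination, 707.6 and 683.5 CPM in IFNa and 220.7 and 294.0 CPM in Control livers. cDC2-like cells had 666.1 CPM in the combination, 598.8 and 492.0 CPM in IFNa and 199.4 and 212.3 CPM in Control livers (1.42 ± 0.16, adjusted p = 0.000871, edgeR), and macrophage-like cells 335.5 CPM in the combination, 403.3 and 371.8 CPM in IFNa and 160.7 and 128.7 CPM in Control livers (1.32 ± 0.17, adjusted p = 0.00194, edgeR). Among T cells, other T-like cells rose by 2.45 ± 0.27 (adjusted p = 0.0044, edgeR), with 67.6 CPM in the combination, 83.3 and 69.9 CPM in IFNa and 14.8 and 12 CPM in Control livers. NK-like cells rose by 1.59 ± 0.32 (adjusted p = 0.0219, edgeR; not called by DESeq2, without Control 11 or without IFNa 23). CD8 T-like cells had 53.8 CPM in the combination, 75.1 and 76.5 CPM in IFNa and 20.3 and 16.7 CPM in Control livers, just short of the threshold (1.96 ± 0.25, adjusted p = 0.057, edgeR).

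Slfn8, a long member related to human SLFN11, was called in 6 classes. B-like cells had 183.9 CPM in the combination, 231.8 and 187.9 CPM in IFNa and 59.1 and 57.5 CPM in Control livers (IFNa against Control, 1.91 ± 0.15, log2, adjusted p = 0.00016, edgeR). Neutrophil-like cells had 99.4 CPM in the combination, 211.4 and 224.0 CPM in IFNa and 54.6 and 43.6 CPM in Control livers (2.02 ± 0.33, adjusted p = 0.000466, edgeR). In cDC2-like cells it reached 231.1 CPM in the combination, 253.1 and 202.5 CPM in IFNa and 61.0 and 70.3 CPM in Control livers (1.82 ± 0.18, adjusted p = 0.000312, edgeR). The other calls were macrophage-like (1.53 ± 0.18, adjusted p = 0.000946), regulatory T-like (1.37 ± 0.25, adjusted p = 0.0271) and other T-like cells (1.13 ± 0.17, adjusted p = 0.0209, edgeR; also lost without IFNa 23). Regulatory T-like cells had 209.7 CPM in the combination, 312.3 and 185.1 CPM in IFNa and 101.6 and 89.6 CPM in Control livers, and that call was lost without Control 25. NK-like cells did not pass (1.12 ± 0.26, adjusted p = 0.0617, edgeR). They had 187.2 CPM in the combination, 191.2 and 176.3 CPM in IFNa and 59.0 and 140.8 CPM in Control livers, so the Control livers differed from each other.

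Slfn9, the neighbour and close relative of Slfn8, had a narrower pattern. It was called in cDC2-like cells (2.38 ± 0.24, log2, adjusted p = 0.000366, edgeR), with 40.7 CPM in the combination, 34.4 and 34.6 CPM in IFNa and 6.31 and 7.4 CPM in Control livers. The second call was macrophage-like cells (1.91 ± 0.19, adjusted p = 0.000348, edgeR), with 81.8 CPM in the combination, 71.0 and 68.0 CPM in IFNa and 18.7 and 13.9 CPM in Control livers. Classical monocyte-like cells had 107.8 CPM in the combination, 87.4 and 98.8 CPM in IFNa and 17.2 and 23.3 CPM in Control livers. Among lymphocytes, IFNa and Control livers overlapped in CD8 T-like, other T-like and NK-like cells. Both IFNa livers lay above both Control livers in CD4 T-like and B-like cells, without a call. CD4 T-like cells had 14.6 CPM in the combination, 16.3 and 21.2 CPM in IFNa and 4.17 and 6.14 CPM in Control livers. B-like cells had 6.05 CPM in the combination, 6.37 and 6.17 CPM in IFNa and 3.11 and 2.35 CPM in Control livers. Other T-like cells had 25.6 CPM in the combination, 31.3 and 32.6 CPM in IFNa and 33.2 and 26.9 CPM in Control livers (0.06 ± 0.25, adjusted p = 1.0, edgeR). Regulatory T-like cells had 33.9 CPM in the combination, 29.3 and 27.6 CPM in IFNa and 29.7 and 48.9 CPM in Control livers, with both IFNa livers below both Control livers (−0.3 ± 0.31, adjusted p = 0.991, edgeR). The same order held in pDC-like cells, with 11.5 CPM in the combination, 4.58 and 8.88 CPM in IFNa and 14.8 and 16.3 CPM in Control livers, from 3 to 10 UMIs a liver (IFNa against Control, −1.13 ± 0.76, adjusted p = 0.817, edgeR).

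The order of classes differed between genes and between groups. By mean over the IFNa livers, Slfn4 was highest in neutrophil-like cells (2039.3 ± 369.0 CPM, SD, n = 2), then in classical monocyte-like cells (1050.6 ± 17.5 CPM), and those neighbours did not overlap. Non-classical monocyte-like (706.4 ± 112.8 CPM) and macrophage-like cells (659.1 ± 101.8 CPM) overlapped with each other, and cDC2-like cells followed at 92.1 ± 4.05 CPM. In Control livers the order was neutrophil-like (486.3 ± 1.2 CPM, n = 2), macrophage-like (43.7 ± 16.3 CPM) and classical monocyte-like cells (42.1 ± 6.85 CPM), the last pair overlapping. Slfn1 was highest in neutrophil-like cells of both groups, at 1112.5 ± 63.8 CPM in IFNa and 391.0 ± 110.6 CPM in Control livers (overlapping there with CD4 T-like cells), and the lowest lymphocyte class was NK-like in both, at 38.0 ± 7.1 CPM in IFNa and 1.87 ± 1.51 CPM in Control livers. For Slfn5 the top class was classical monocyte-like in both groups, at 695.6 ± 17.1 CPM in IFNa and 257.4 ± 51.8 CPM in Control livers. Slfn9 changed its top class: classical monocyte-like cells in IFNa livers (93.1 ± 8.05 CPM) and regulatory T-like cells in Control livers (39.3 ± 13.5 CPM), each overlapping with the next class.

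IFNa + aCTLA4 against Control used the same Control livers and 1 combination liver, whose variation was taken to be that of the remaining groups. Of 84 pairs of gene and class 82 were fitted, 36 were higher and 0 lower, beside 2.22% of all gene and class pairs called higher and 0.915% lower. The calls were 8 for Slfn1, 4 for Slfn2, 5 for Slfn4, 8 for Slfn5, 7 for Slfn8 and 4 for Slfn9. All 6 genes were called in classical monocyte-like (10.6% of all genes higher), non-classical monocyte-like (3.98%) and cDC2-like cells (4.33%). Macrophage-like cells had 5 calls (3.34%), all but Slfn2 (0.73 ± 0.23, log2, adjusted p = 0.12, edgeR). The fitted log2 fold change of Slfn4 was 4.24 in classical and 6.0 in non-classical monocyte-like cells. Both share their Control values with the pattern that chose the family, so they are a description; without them 34 of 80 fitted pairs were called higher.

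B-like (1.55% of all genes higher), NK-like (0.824%) and other T-like cells (0.581%) had 3 calls each in this comparison, pDC-like cells (0.949%) 2, and regulatory T-like (0.49%) and mature DC-like cells (0.396%) 1 each. Without Control 11 all calls in NK-like and other T-like cells were lost, and without Control 25 the regulatory T-like call of Slfn1. The pDC-like calls were Slfn5 and Slfn4 (3.51 ± 0.6, adjusted p = 0.0155, edgeR; not called by DESeq2 or without Control 11). The 94 Slfn4 UMIs of the combination liver lay in 7 of its 70 pDC-like cells. Slfn8 in mature DC-like cells rose by 3.61 ± 0.59 (adjusted p = 0.0343, edgeR), with 140.3 CPM in the combination and 11.6 and 9.33 CPM in Control livers, whose counts were 4 and 1 UMIs. That call was lost without either Control liver. In neutrophil-like cells 0 of 5 fitted members were called (4 unadjusted, DESeq2 0; 1.89% of all genes higher), on 21 cells of the combination liver. CD4 T-like, CD8 T-like and epithelial-like cells had 0 of 6 each (2, 3 and 2 unadjusted; DESeq2 0, 1 and 0; 0.0736%, 0.0% and 0.577% of all genes higher).

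Set against IFNa alone, the combination showed no call: edgeR called 0 of 82 pairs (8 at an unadjusted p under 0.05, DESeq2 0), and 0 of the 80 without Slfn4 in monocyte-like cells, beside 0.724% of all gene and class pairs called in either direction. Of the fold changes 36 were above and 45 below zero. The lowest adjusted p was that of Slfn5 in neutrophil-like cells (0.0541, edgeR), where the combination liver lay below both IFNa livers by −1.59 ± 0.49. Slfn4 in pDC-like cells was higher in the combination, at 120.4 CPM against 32.0 and 38.8 CPM in IFNa livers (1.76 ± 0.45, adjusted p = 0.439, edgeR), the UMIs lying in 7 of 70 cells of the combination and in 4 of 73 and 8 of 90 cells of the IFNa livers. This pair passed the threshold without Control 11, without Control 25 and without IFNa 23. It also passed with no filter on low counts, with at least 30 cells per sum and with only the 2 groups compared. Its log2 fold change in these settings was 1.73 to 1.92. Slfn5 in neutrophil-like cells passed without IFNa 18 (−1.9) and with no filter (−1.71). Slfn2 passed in B-like cells with only the 2 groups compared (−0.37) and in epithelial-like cells with no filter (1.18). The lack of a call for these pairs thus depended on the setting. Within neutrophil-like cluster 12, Slfn5 had 176.2 CPM in the combination (15 cells) and 281.1 and 560.8 CPM in IFNa livers. A missed threshold with 1 combination liver does not show that the antibody left these genes as they were.

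Whether the IFNa effect differed between classes was tested as an interaction against CD8 T-like cells; each library was a block. Of 66 pairs outside the monocytes 1 was called (13 at an unadjusted p under 0.05), beside 0.0938% of all gene and class pairs: the effect on Slfn1 was larger in cDC2-like than in CD8 T-like cells by 2.43 ± 0.46 (log2, adjusted p = 0.00993, edgeR), where 0.111% of all genes were called. It was not called without Control 11 or without IFNa 23. The other differences did not pass, which does not show equal responses. CD8 T-like cells of Control livers held 1 UMI of Slfn4.

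Known interferon targets were called in the same comparison. Of 45 measured genes of a type I interferon list, 43 of 45 fitted were called higher in cDC2-like, 44 of 45 in macrophage-like, 40 of 44 in B-like and 32 of 44 in neutrophil-like cells of IFNa livers (edgeR). NK-like and other T-like cells had 30 of 44 each, regulatory T-like 23 of 42, pDC-like 20 of 45 and CD4 T-like cells 10 of 42. CD8 T-like cells had 0 of 42, and mature DC-like and epithelial-like cells 1 each of 44 and 45. None of these genes was called lower. Over the 12 classes Isg15, a ubiquitin-like protein, was called in 10 (log2 fold change 1.28 to 2.98), Ifi44 in 9 (2.54 to 8.19), Irf7, which amplifies the interferon response, in 8 (1.71 to 3.66) and Ifit3, which binds viral RNA complexes, in 6 (−1.19 to 5.69). Of genes for subunits of ISGF3, Stat2 was called in 6 (0.77 to 1.53) and Irf9 in 4 (0.44 to 1.33). The receptor genes Ifnar1 and Ifnar2 were called in 0 of 12, with fold changes of −0.44 to 0.55 and −0.31 to 0.42. Of 14 genes of dissociation stress, such as Fos and Jun, 0 were called higher and 4 lower in B-like and in regulatory T-like cells, 2 lower in macrophage-like and CD4 T-like cells, and 0 or 1 lower in the other classes; their part in the Schlafen values was not tested.

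The genes most like each Schlafen gene were found by Pearson correlation of log2(CPM + 1) over 83 sums of liver and class, among 10809 genes. These points share livers and depth, so the values only describe. Slfn4 was closest to Clec5a, a myeloid receptor (r = 0.84), then Oas1g (0.829), Oasl2 (0.816), Csf3r, the receptor of the neutrophil growth factor G-CSF (0.814), and Ly6i (0.811). Slfn5 was closest to Stat2 (0.888), then Znfx1, Ifit2, Dhx58 and Trafd1. For Slfn1 the nearest were Ifit3 (0.785), Ifi27l2a, Ddx60, Rtp4 and Rnf213, and the nearest of Slfn2 included 1600014C10Rik (0.878), Irf9 (0.87), Hcls1 and Sirt7. Slfn8 was nearest to 9930111J21Rik2 (0.881), Adar, Ifi47, Parp14 and its family member Slfn2 (0.854). Slfn9 had the weakest neighbours, Mlkl (0.708), Irgm2, Rnf213, Ddx58 and Gbp3. Between members, Slfn4 correlated with Slfn1 at 0.582, Slfn5 at 0.51, Slfn9 at 0.422, Slfn2 at 0.357 and Slfn8 at 0.33.

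Of the other Schlafen genes, Slfn3, the close relative of Slfn4, was low, with 1596 UMIs over all classes. In cDC2-like cells it had 29.0 CPM in the combination, 24.2 and 23.2 CPM in IFNa and 2.1 and 3.7 CPM in Control livers (IFNa against Control, 3.25 ± 0.34, log2, adjusted p = 0.000468, edgeR). Non-classical monocyte-like cells had 15.2 CPM in the combination, 12.5 and 18.9 CPM in IFNa and 0.814 and 0 CPM in Control livers. Slfn14, which acts in red cell and platelet precursors, had 15 UMIs in all, 14 of them (93.3%) in erythroid-like cells, with 25.6 and 20.3 CPM in IFNa and 31.5 CPM in Control 11. Slfnl1 had 3 UMIs. In the same erythroid-like cells Slfn4 had 96.0 and 81.1 CPM in IFNa livers, against 0 in Control 11, without a test. The UMIs (15 and 12) came from 1 cell in each IFNa liver, of 25 and 18 cells.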

How the data were processed

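The deposited values are UMI counts per gene and cell; the authors made them with Cell Ranger 7.0.1 against mm10, per the submitters' processing notes. T cell receptor files were not used. Cells under 200 genes or over 15% mitochondrial UMIs were dropped, as were the 6 to 728 cells of each liver with the highest Scrublet doublet scores, and 26229 cells were clustered (scanpy 1.11.5, Python 3.11.15; 2500 variable genes, 40 components, 20 neighbours, Leiden resolution 2.0, 51 clusters). From the clustering 1138 genes, Schlafen and interferon genes among them, were left out. Clusters were named from marker lists, and 3669 cells stayed unnamed; names with "-like" are rebuilt here. UMIs were summed per liver and class with at least 10 cells. The sums were fitted with edgeR 4.0.16 (R 4.3.3; quasi-likelihood, TMM, filterByExpr), all 3 treatments in 1 fit per class, and p-values were adjusted over all genes of the class. The SE is the log2 fold change divided by the root of F. DESeq2 1.42.0 and the settings of the closing section were alternatives. The fit was tested on simulated data. Intervals cover counting error only, and a floor of 3 UMIs stands for a count of 0.

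The members and lists were chosen with earlier results of these data known. The genes named were the 6 members, the other Schlafen genes, 9 interferon genes and the 5 genes most correlated with each member among those averaging at least 5 CPM. Some genes that this rule names are not reported here. Promoters are those of RefSeq on GRCm38.p6.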

Additional observations from a re-analysis of the deposited data

Results flagged for a closer look

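The effect of IFNa against Control on Slfn1 was larger in cDC2-like than in CD8 T-like cells by 2.43 ± 0.46 (log2, adjusted p = 0.00993, edgeR interaction test with the library as a block). Both IFNa livers lay above both Control livers in each class. In cDC2-like cells Slfn1 had 384.1 and 365.1 CPM in IFNa and 24.9 and 48.1 CPM in Control livers, and in CD8 T-like cells it had 287.1 and 239.5 CPM in IFNa and 118.1 and 119.5 CPM in Control livers. The call was lost without Control 11 or without IFNa 23. The CD8 T-like class mixed clusters in shares that differed between livers. Slfn1 had 304.0 and 306.1 CPM in IFNa and 138.6 and 147.1 CPM in Control livers in its cluster 11. In cluster 32 it had 484.8 and 493.1 CPM in IFNa and 120.4 and 88.0 CPM in Control livers. Cluster 16 had 161.2 and 179.1 CPM in IFNa livers and 65.3 CPM in Control 11. The part of this mix in the difference was not tested.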

How the results depend on the processing

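No alternative turned a called fold change round. IFNa against Control gave 30 calls, 24 to 38 with 1 library left out, 31 with DESeq2 and 48 with no filter on low counts. Of the 30, 24 were kept without Control 11, 25 without Control 25 and 28 with DESeq2. The combination against Control gave 36 calls, 31 to 48 with 1 library left out, 34 with DESeq2 and 54 with no filter; 28 were kept without Control 11. Against IFNa the combination gave 0 calls, but 1 with each single library left out, 3 with no filter, 1 with at least 30 cells per sum and 2 with only the 2 groups compared. The difference between classes gave 1 call, 0 to 1 with 1 library left out and 2, both lower, with B-like cells as the class compared with. The causes were not tested. Of the single results, 715 values kept their side of the threshold, 52 lost it and 2 moved by more than the replicate SD, both the Control mean of Slfn4 in neutrophil-like cells: 498.6 CPM with classes from each cell's own markers and 477.8 CPM with doublets kept, against 486.3 CPM. No paired analysis was possible because the groups compared share no sample number. With 1 or 2 livers a group and 863 cells in Control 25, small differences were not detectable.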
